A study of Rattus norvegicus with 4 samples.

Results

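The genes described here encode the proteins of the cytosolic ribosome. They were chosen by name, as non-control probes whose gene name begins with Rpl or Rps and a number, or with Rplp and a number, after the endings for predicted and mapped genes were dropped, and without the S6 kinases (names beginning Rps6k). This gave 106 probes of 71 genes among 41012 probes on the array. All 106 passed the filter on dim spots and entered the fit, as did 24864 probes in all. For 104 of the 106, both dyes were well above background on all 4 arrays. The RNAs were hybridized in pairs to 4 Agilent arrays of the whole rat genome, read in 2 colours. CC was a co-culture of neurons with astrocytes that received no cold jet. CC-CJ was the same kind of co-culture after cold jet, a stream of ice-cold buffer that washes neurons off the astrocyte layer. AA-CJ was astrocytes grown without neurons and given the same cold jet. Astrocytes were primary cells of cortex from Wistar rat pups at postnatal day 1, and the neurons came from hippocampi of mouse embryos at embryonic day 18, so that neuronal mRNA from mouse met rat probes. Cy3 carried CC-CJ throughout, and Cy5 carried AA-CJ on 2 arrays and CC on the other two. Dyes were not swapped, and within an array dye and condition cannot be told apart.

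The cytosolic ribosome translates the mRNAs made in the nucleus. Its small subunit binds the mRNA and decodes it, and its large subunit joins the amino acids and passes the chain into an exit tunnel. Each ribosome holds about a single copy of most of its proteins, and their mRNAs are among the most abundant of a cell. In vertebrates these mRNAs typically begin with a C followed by a tract of C and T, called the TOP motif (5′ terminal oligopyrimidine), through which mTOR signalling and LARP1 set how strongly they are translated. Rps16 is a protein of the small subunit whose tail reaches towards the tRNA site. The question asked of the arrays was whether the Rps16 mRNA moved alone or with the rest of the family.

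The start of the gene is shown for members among the 10 lowest probes against AA-CJ, where a single entry was given and the gene is reported here, and for a pair of members near 0, because the TOP motif is defined at that place. The stretches run from 10 bases before the annotated start to 20 bases from it on, and capitals mark the longest run of C and T that opens with C. They are RefSeq sequences of the build GRCr8, read on the strand of the gene.
Rps16 (chr1:92770648-92770677, plus strand): aaaatcggtcggggtggccccaagCTTTCC
Rps23 (chr2:23814507-23814536, plus strand): ccttcctgCCTCTCTTCTCTCTTTCTCTCg
Rpl23 (chr10:83272165-83272194, minus strand): CTTCCTTTCTgactctttccggacgctcaa
Rpl41 (chr7:1563478-1563507, minus strand): CTCggaagtgacgacaccaagcacgccatt
Rpl35 (chr3:43165902-43165931, minus strand): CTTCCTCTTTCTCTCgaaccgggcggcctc
Rpl17 (chr18:70856266-70856295, plus strand): ttcgcgCTTCCTCTTCCTgttagcggccag
Rpl14 (chr8:129163610-129163639, plus strand): ggCCCTCTCCCTTCTCgctgagcgccgcca
Rps6 (chr5:106420521-106420550, minus strand): CTCCTaggcggtcggctgtgtcaagatgaa
Rps7 (chr6:50999426-50999455, minus strand): agagctgtgtCTCTTTCTaagccggcactc
Rps4x (chrX:71342902-71342931, minus strand): cgcgcgcagCCTCCgaccctaatttcttcg

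Of the 71 genes, 57 had a single entry in the RefSeq table. A C at the annotated start with 4 further bases that are each C or T was found in 22 of the 57 (38.6%), against 2.63% of all 33469 entries. The letters CTTTC, searched on the gene's own strand within the 30 bases shown, were found in 23 of the 57 (40.4%), against 3.39% of all entries. A run of C and T of 8 or more bases that opens with C was found in 34 (59.6%), against 7.87% of all entries. Rps16 had CTTTC within the transcribed bases of the stretch, but not a C with 4 further bases of C or T at the annotated start itself. The longest such run in Rpl41 was 3 bases. These counts depend on where the annotation sets the start.

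Between 50.1% and 62.6% of probes were well above background per channel, and no member was saturated in any channel. The astrocyte markers were read in every group, with 13 probes of 9 genes kept and a log2 summed level of 15.92 to 15.99 in CC-CJ, 15.67 to 15.95 in AA-CJ and 15.88 to 15.94 in CC. An Aqp4 probe among them was called higher against AA-CJ (0.94) and in CC versus AA-CJ (0.92), and no other astrocyte probe was called. Of the neuron markers, 14 probes of 12 genes were kept, and 10 of the 14 were higher in CC than in AA-CJ by limma. Their log2 summed level was 13.06 to 13.15 in CC-CJ, 13.13 to 13.21 in AA-CJ and 14.51 to 14.64 in CC. Stmn2, the brightest neuron probe in that sum (mean A 12.7), had log2 differences of -0.27 against AA-CJ and -9.55e-04 against CC. Against AA-CJ, 5 of the 14 neuron probes were called higher in CC-CJ, with Gap43 at 2.03, Dcx at 0.87 and L1cam at 0.77, and against CC 11 of the 14 were called lower. Microglial markers (9 probes of 7 genes kept) also stood apart, with 4 called higher and 0 lower against AA-CJ, 6 called lower against CC and 5 called higher in CC versus AA-CJ. Their log2 summed level was 11.50 in CC on both arrays against 10.51 to 10.81 in CC-CJ and 10.03 to 10.18 in AA-CJ. Of the oligodendrocyte lineage markers (11 probes of 9 genes kept), Sox10 (-1.12) and a Mag probe (-0.82) were called lower against CC and that Mag probe higher in CC versus AA-CJ (0.89). In AA-CJ, 7 of the 17 neuron probes on the array were well above background. The part of RNA from these other cell types in the results below was not tested, and in bulk RNA fewer cells of a type and less of an mRNA per cell cannot be told apart.

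Rps16 was lower in the cold-jet co-culture (CC-CJ) than in AA-CJ and than in CC. It has 1 probe on the array (A_42_P544648, chr1:83463262-83463321 in rn4). Its M values, log2 of Cy3 over Cy5 and so negative where CC-CJ was lower, were -1.16 and -1.12 on the AA-CJ arrays and -0.65 and -0.86 on the CC arrays. The 4 values lay below 0, and those of the AA-CJ arrays lay below those of the CC arrays. The log2 difference between CC-CJ and AA-CJ was -1.14 ± 0.092 (SE, n = 2 arrays), with an adjusted p of 0.00282 by limma. Each SE given here is limma's. It pools the spread of all 4 arrays and is drawn towards that of all probes, and so is the same in both direct comparisons. CC-CJ thus held 45.4% of the AA-CJ level. Between CC-CJ and CC the log2 difference was -0.76 ± 0.092 (SE, n = 2), with an adjusted p of 0.00775 by limma, or 59.2% of the CC level. For CC against AA-CJ, which were both read in Cy5, the log2 difference was -0.38 ± 0.131 (SE, n = 2 arrays per group) and did not pass the threshold of 0.05 (adjusted p = 0.203 by limma). With Agilent's own log ratio, which has another normalization, Rps16 had -0.90 and -0.54 in the direct comparisons and passed in neither (adjusted p of 0.106 and 0.215 by limma). In the authors' normalized table it had -0.59 against AA-CJ (adjusted p = 0.0194 by limma) and -0.30 against CC (0.19), and with median centring -2.61 and -1.75. Without replicate 2 of the CC arrays it had -0.65 against CC and did not pass (adjusted p = 0.107).

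The signal of each channel, given as log2 after normalization, restates M within an array and adds only the levels between arrays. In CC-CJ the Rps16 level was 16.55 and 16.58 on the AA-CJ arrays and 16.75 and 16.64 on the CC arrays. It was 17.71 and 17.70 in AA-CJ and 17.40 and 17.51 in CC. No CC-CJ value reached the lowest value of either other group. Among the 106 members, Rps16 had the lowest log2 difference between CC-CJ and AA-CJ, rank 2 between CC-CJ and CC and rank 10 between CC and AA-CJ. Of all 24864 probes, 10 were as low as Rps16 or lower in CC-CJ versus AA-CJ, 301 in CC-CJ versus CC and 1071 in CC versus AA-CJ, itself included. In the authors' normalized table its ranks were 3, 7 and 27.

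Rps16 was not the only member called lower in either direct comparison. The family median lay below that of all probes in CC-CJ versus AA-CJ, but not in CC-CJ versus CC. In CC-CJ versus CC it was -0.02 against -0.03, and 50.9% of members lay below 0, against 56.6% of all probes. Between CC-CJ and AA-CJ, 21 member probes of 20 genes were called lower and 0 higher by limma at an adjusted p under 0.05 (19.8% of the members). Over all probes, 1.17% were called lower and 2.12% higher. At an unadjusted p under 0.05, 56 members were lower and 0 higher, against 22.4% of all probes in either direction. Without replicate 1 of the AA-CJ arrays 7 were called lower (0.253% of all probes), without replicate 2 14 were (0.756%), and with Agilent's log ratio 0 were (0.0442%, and 24 members lower at an unadjusted p under 0.05). With an array left out, the 1 array that remains is assumed to vary like the 2 arrays of the other comparison. Below 0 on both arrays lay 80 of the 106 members, against 35.8% of all probes. The median log2 difference was -0.24 over the members (quartiles -0.43 and -0.09) and -0.01 over all probes. Without Rps16 the median of the other 105 was -0.23. By the limits used in the methods of the study, set here at 2 SD from the mean of each array and required on both arrays, 17 members were lower and 0 higher. These limits took 1.03% of all probes as lower and 1.67% as higher.

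**Figure D1:**
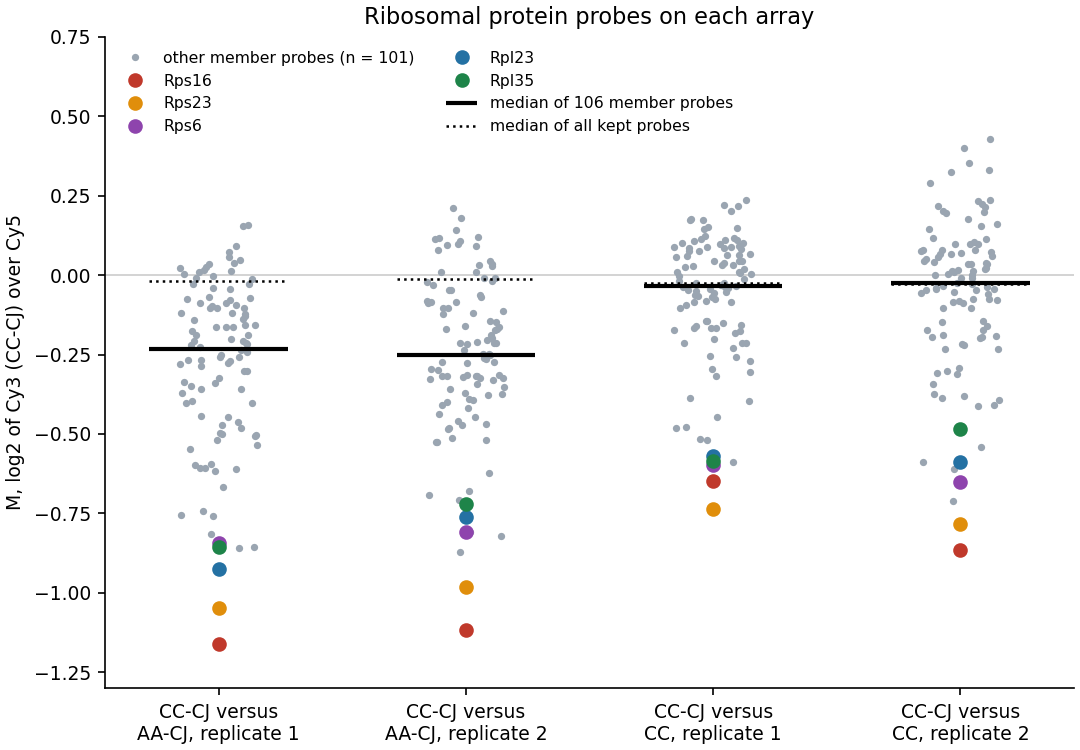
M values (log2 of Cy3 over Cy5) of the 106 ribosomal protein probes on each of the 4 arrays, with 5 members in colour, the member median as a solid line and the median of all kept probes as a dotted line. Rps16 is at -1.16 and -1.12 on the AA-CJ arrays and at -0.65 and -0.86 on the CC arrays, with Rps23 next to it, and the member median lies below that of all probes on the AA-CJ arrays.

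In the small subunit, Rps23 stood next to Rps16 in rank in both direct comparisons. Rps23 lines the decoding centre, where codon and anticodon pair. Its M values were -1.05 and -0.98 on the AA-CJ arrays and -0.74 and -0.78 on the CC arrays. Its log2 difference was -1.01 ± 0.084 (SE, n = 2) against AA-CJ, with an adjusted p of 0.00303 by limma. The AA-CJ values of Rps6 were -0.84 and -0.81, and its CC values were -0.60 and -0.65. Rps6 is the target of the S6 kinases that gives them their name. The brighter of the 2 Rps20 probes had M values of -0.76 and -0.87 on the AA-CJ arrays and -0.52 and -0.61 on the CC arrays. Rps20 sits in the head of the small subunit. In all, 9 of 41 small subunit probes (30 genes) were called lower against AA-CJ (1.17% of all probes), with a median log2 difference of -0.24 and a range from -1.14 to 0.10.

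In the large subunit, 11 of 63 probes (39 genes) were called lower against AA-CJ (1.17% of all probes), with a median log2 difference of -0.23 and a range from -0.84 to 0.12. Rpl23, at the face where the subunits meet, had M values of -0.92 and -0.76 on the AA-CJ arrays and -0.57 and -0.59 on the CC arrays. Rpl41, the smallest protein of the ribosome, had -0.86 and -0.82 against AA-CJ and -0.40 and -0.19 against CC. Rpl35, near the mouth of the exit tunnel, had -0.86 and -0.72 against AA-CJ and -0.58 and -0.48 against CC. Those 3 mRNAs were lower on all 4 arrays, and Rpl41 was called in the comparison with AA-CJ alone. Rpl14 had M values of -0.76 and -0.69 on the AA-CJ arrays and -0.48 and -0.59 on the CC arrays. Rpl17, which lines the exit tunnel, had -0.81 and -0.71 on the AA-CJ arrays at its dimmer probe. Its CC arrays were far apart there, at -0.14 and -0.71. The 11 called probes above the 10 lowest, of both subunits and the P-stalk, had log2 differences of -0.69 to -0.43, with adjusted p of 0.0252 to 0.0489 by limma. Rplp1, a protein of the stalk that recruits the translation factors, was one of them, with M values of -0.61 and -0.51 on the AA-CJ arrays. Over 18 alternative settings the log2 difference of Rplp1 against AA-CJ ran from -2.06 to -0.04. Rplp2, the partner of Rplp1 in the stalk, had M values of -0.10 and 0.03 on the AA-CJ arrays.

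Other members stayed near 0 on the same arrays. The 5 highest log2 differences between CC-CJ and AA-CJ were 0.12 for Rpl18, 0.10 for Rps4x, 0.08 for Rps3, 0.07 for the brighter probe of Rps15 and 0.07 for a probe of Rpl21. Rps3 forms part of the channel through which mRNA enters. None of those 5 passed the test. Rpl27 had log2 differences of -7.15e-05 and 0.03 at its 2 probes. Rpl7a was at 0.01. Rps7, whose start is shown above, was at -0.08, from M values of 0.05 and -0.20, and had -0.25 in CC versus AA-CJ.

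Between CC-CJ and CC, 8 members were called lower and 0 higher by limma (7.55% of the members). Over all probes, 2.3% were called lower and 0.0845% higher. The 8 were Rps23, Rps16, Rps6, Rpl23, Rps20, Rpl8, Rpl14 and Rpl35, and all of them were among the 21 called against AA-CJ. The 2 comparisons share the CC-CJ condition and its dye. Log2 differences were -0.76 ± 0.084 for Rps23, -0.62 ± 0.083 for Rps6, -0.58 ± 0.088 for Rpl23 and -0.56 ± 0.087 for Rps20 (SE, n = 2 arrays), with adjusted p of 0.00512, 0.0116, 0.0203 and 0.0211 by limma. Rpl8, close to the site of peptide bond formation, had -0.56 ± 0.105, with M values of -0.59 and -0.54. The median over the members was -0.02 (quartiles -0.19 and 0.08), close to the -0.03 over all probes. Of the 106 members 50 lay below 0 on both arrays, against 38.4% of all probes. The highest log2 differences were 0.25 for Rpl24, 0.24 for Rps15, 0.22 for Rps10, 0.21 for a probe of Rpl15 and 0.19 for a probe of Rpl29, and none passed. At an unadjusted p under 0.05, 21 members were lower and 2 higher, and 16.8% of all probes passed in either direction. Without replicate 1 of the CC arrays 4 were called lower (2.34% of all probes). Without replicate 2 it was 0 (0.921%), and with Agilent's log ratio 0 (1.21%), with 13 and 8 members lower at an unadjusted p under 0.05. By the 2 SD limits on both arrays, 6 members were lower and 0 higher, against 2.1% and 0.185% of all probes.

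Between CC and AA-CJ, which is the difference of the other two and compares RNAs in 1 dye, no member passed. Limma called 0 members lower and 0 higher, and the lowest adjusted p was 0.0903, for Rpl41. At an unadjusted p under 0.05, 25 members were lower and 0 higher, against 17.4% of all probes in either direction. Over all probes, 0.0644% were called lower and 2.6% higher. The members nevertheless lay on 1 side: 97 of 106 (91.5%) had a log2 difference below 0, against 49.0% of all probes. Their median was -0.19, with quartiles of -0.28 and -0.11, against 0.01 over all probes with quartiles of -0.14 and 0.17. In 72 of the 106, both M values of the AA-CJ arrays were below both M values of the CC arrays, against 23.3% of all probes. Rps16 was less set apart here. It lay 0.20 below the median of the other members, against 0.91 in CC-CJ versus AA-CJ and 0.74 in CC-CJ versus CC.

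The lowest members of CC versus AA-CJ were partly other probes. Rpl41 had a log2 difference of -0.55 ± 0.129 (SE, n = 2 per group), from M values of -0.86 and -0.82 on the AA-CJ arrays and -0.40 and -0.19 on the CC arrays. Rpl13 had -0.44 at its brighter probe. Dim probes of Rpl37 (-0.71) and Rps15 (-0.55), which are described with the genes of several probes, were also among the 5 lowest. The 5 highest were Rps3 (0.15), Rpl7a (0.10), Rpl4 (0.08), Rpl18 (0.06) and a probe of Rps2 (0.03). The small and large subunits had medians of -0.20 and -0.19.

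In both direct comparisons the member probes called lower were mostly the brightest. Brightness was taken as mean A, the mean log2 signal of both channels over the 4 arrays, which reflects probe and dye as well as mRNA. Of the 31 members with a mean A of 16 or more, 17 were called lower against AA-CJ and 8 against CC. Of 59 other probes that bright, 13 and 8 were called lower. Of the other 75 members, 4 and 0 were called, and their medians were -0.16 and 0.05. Among 24699 other probes under 16, 258 and 555 were called lower, with medians of -0.01 and -0.03. Rps16 had a mean A of 17.1, rank 16 of all kept probes. The 4 members of 17 or more were Rps16, Rps23, Rps6 and Rplp1. Over all 106 members the log2 difference had a Pearson r with mean A of -0.29 (Spearman -0.46) against AA-CJ, -0.45 (-0.64) against CC and 0.17 (0.03) in CC versus AA-CJ. Over the 78 members with a mean A of 14 or more, it had a Pearson r with mean A of -0.77 (Spearman -0.76) against AA-CJ, -0.83 (-0.86) against CC and -0.18 (-0.21) in CC versus AA-CJ. These probes share the same 4 arrays, and the limits of 14 and 16 were chosen after the data were seen.

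Probes of other genes with equally bright spots were also lower in the direct comparisons. Between a mean A of 16 and 17, the median log2 difference was -0.44 over 27 members and -0.17 over 45 other probes against AA-CJ, and -0.20 and -0.18 against CC. At 17 or more it was -0.92 over 4 members and -0.43 over 14 others against AA-CJ, and -0.69 and -0.61 against CC. In CC versus AA-CJ the other probes were near 0 in both bins, at -0.03 and -0.01, whereas the members were at -0.25 and -0.23. Members dimmer than 12 had a median of -0.33 in that comparison (11 probes), and other probes of that brightness had 0.01. Bright spots were read by the scanner in a second scan at low gain and scaled up. In 35 members this held for both dyes on all 4 arrays, and 18 of the 35 were called lower against AA-CJ and 8 against CC. In 45 members it held for Cy5 alone on all arrays, and 1 and 0 of them were called. Of 487 other probes scaled in Cy5 alone, 6 and 5 were called lower. In 93 other probes scaled in both dyes, 13 were called lower against AA-CJ and 8 against CC. The part of brightness, dye and scaling in the lower values was not tested.

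**Figure D2:**
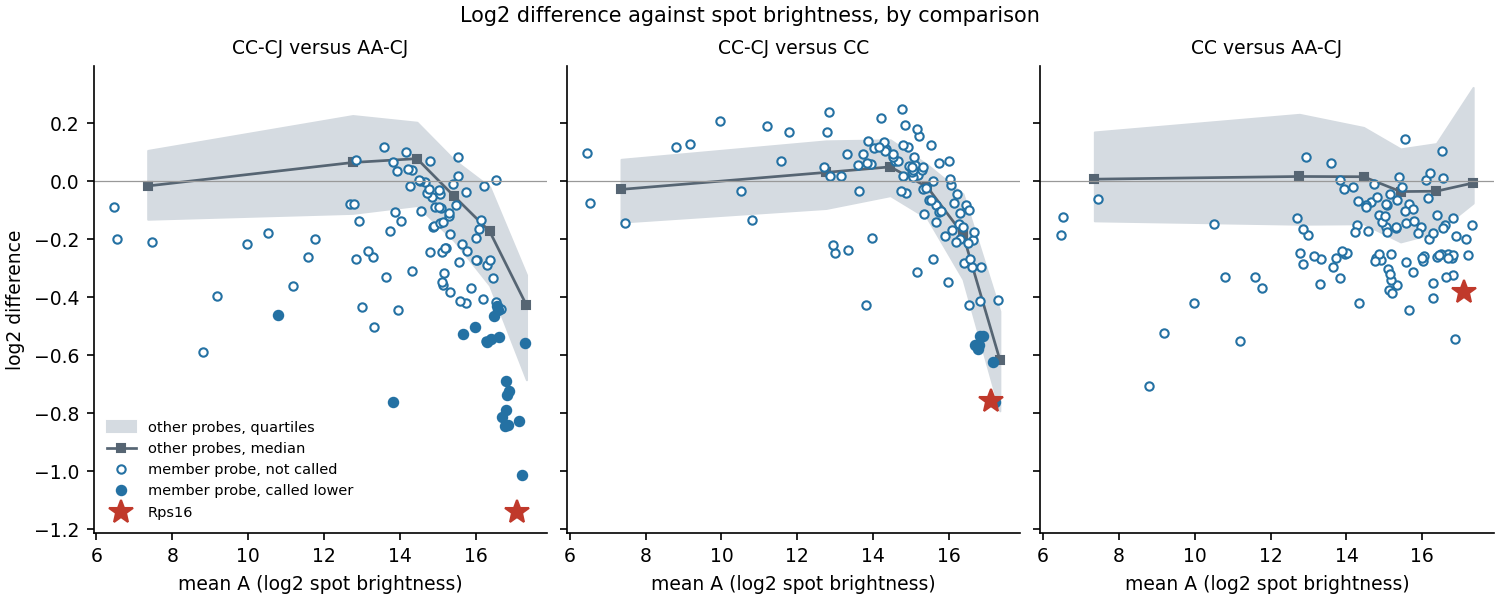
Log2 difference of each of the 106 member probes against mean A, in the 3 comparisons, with the median and quartiles of the other kept probes in bins of mean A (squares and grey band) and Rps16 as a star. Members and other probes both turn down above a mean A of 15 in the direct comparisons, and in CC versus AA-CJ the members lie below the other probes at low and high brightness.

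Probes of the same gene did not always give the same value. Of the 71 genes, 25 had several probes (60 probes) and 46 had 1. Probes of a gene differed by more than 0.5 in 2 genes against AA-CJ, in 1 against CC and in 1 in CC versus AA-CJ. In Rps20 the probe at chr5:162082707-162082766 (rn4, mean A 16.7) had a log2 difference of -0.81 against AA-CJ and -0.56 against CC, whereas the probe at chr5:162082519-162082578 (mean A 15.2) had -0.23 and 0.02. In CC versus AA-CJ both were at -0.25. The M values of the dimmer probe were -0.14, -0.32, 0.08 and -0.04, the CC arrays last. The Rps20 probes were thus far apart in the direct comparisons and close in the comparison within Cy5.

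In Rpl17 the order was the other way round. The dimmer probe (chr18:71864767-71864826, mean A 13.8) had -0.76 against AA-CJ and -0.43 against CC. The brighter probe (chr18:71866091-71866150, mean A 15.1) had -0.25 and 0.06. Both were alike in CC versus AA-CJ, at -0.33 and -0.30. Of the 20 genes whose probes are written in 1 order on 1 chromosome, the brightest probe was lower than the dimmest in 14 against AA-CJ, in 15 against CC and in 8 in CC versus AA-CJ. Rps2, with 4 probes, ranged from -0.42 at its brightest to -0.02 against AA-CJ, and Rpl21, with 5 probes, from -0.08 to 0.07.

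In 5 genes the files place probes in opposite orders of their end coordinates, or on different chromosomes. In Rpl37 the probe at chr2:54304211-54304270, written in descending order and dim (mean A 8.80), had -0.59 against AA-CJ and 0.12 against CC. The ascending probe at chr2:54303296-54303355 (mean A 16.6) had -0.43 and -0.27. In CC versus AA-CJ they were 0.54 apart, at -0.71 and -0.16. Dim probes of opposite order also had the lower value of their gene in CC versus AA-CJ in Rps15 (-0.55 against -0.16) and Rps25 (-0.33 against -0.25). Which strand each of them reads was not tested. A probe named Rpl15 lies on chr18 at 50270405 to 50270464, apart from the other two on chr15. It had -0.42 in CC versus AA-CJ, against -0.15 and -0.01. In several other members the chromosome given for the probes in rn4 was not that of the gene's start in GRCr8. Members near 0 against AA-CJ were among them, such as Rpl21 (chrX and chr12), Rpl7a (chr1 and chr3) and Rps7 (chr5 and chr6). Whether those probes read the named gene was not tested. Many ribosomal protein genes also have near-identical copies elsewhere in the genome. RefSeq has 175 genes named as numbered like copies of 53 of the 71 genes, among them 1 for Rps16. They were counted by name alone, without comparing sequences, and how far they share a probe's signal was not tested.

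**Figure D3:**
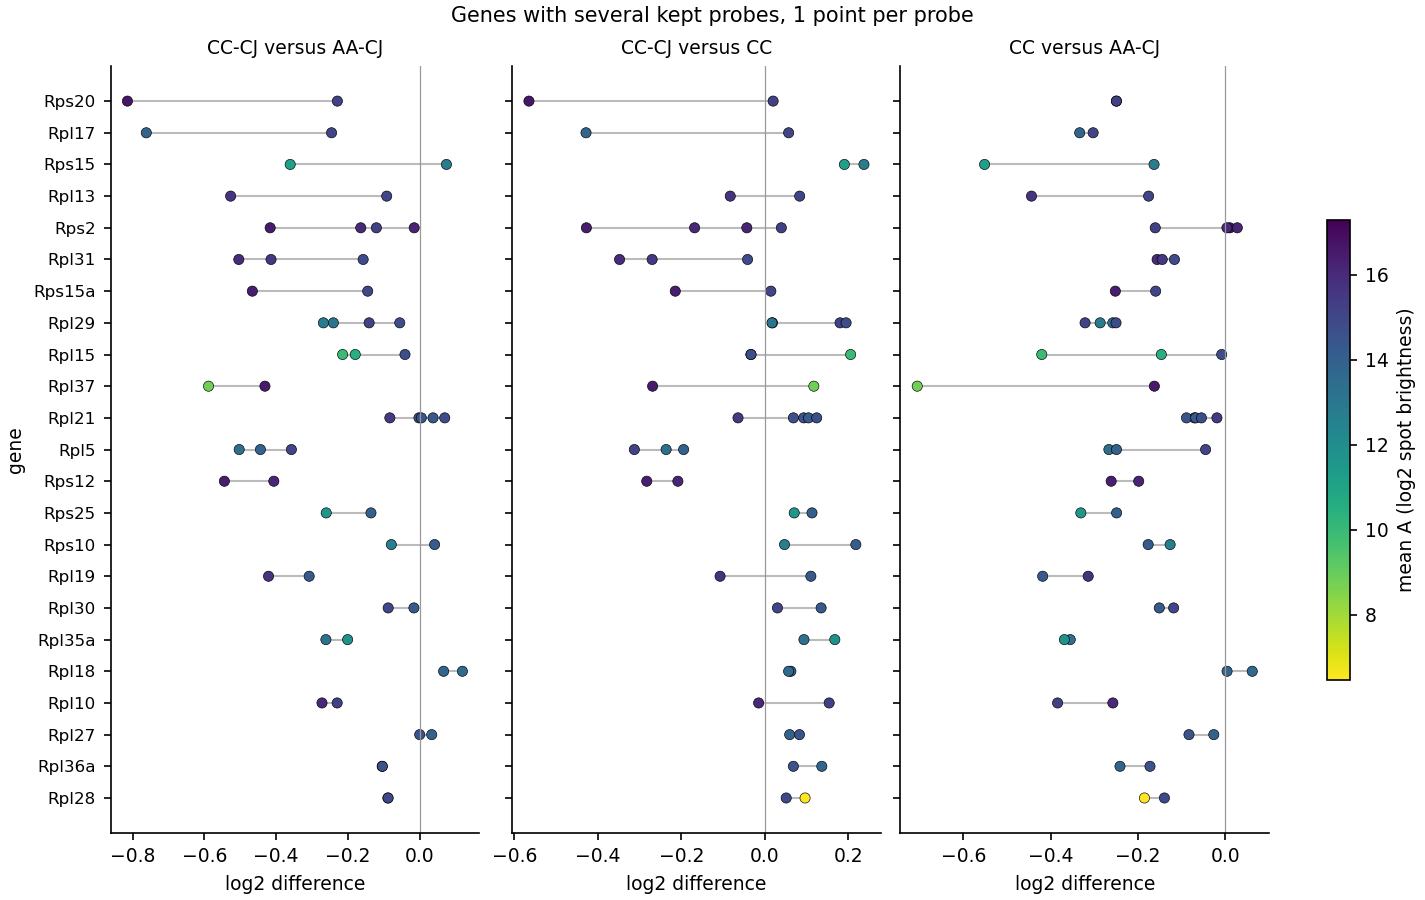
Log2 difference of each probe in genes with several kept probes, in the 3 comparisons, with points coloured by mean A and ordered by the spread against AA-CJ. The Rps20 probes are at -0.81 and -0.23 against AA-CJ and both at -0.25 in CC versus AA-CJ, and the dim Rpl37 probe is at -0.71 there.

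Some members have roles beyond a structural one. Rpl5 and Rpl11, which with the 5S rRNA can bind Mdm2, had log2 differences against AA-CJ of -0.50, -0.44 and -0.36 (3 probes of Rpl5) and -0.27 (Rpl11), and none passed. Rps27a, made as a fusion with ubiquitin, had -0.37. Rps26, in the channel through which mRNA leaves, was called at a dim probe (mean A 10.8), with M values of -0.44 and -0.48 on the AA-CJ arrays and -0.16 and -0.10 on the CC arrays. Rpl3l, the paralogue of Rpl3 known from muscle, had a mean A of 6.54 and was not well above background in 1 of 8 channels. Its log2 differences were -0.20, -0.08 and -0.12, and those of Rpl3 were -0.43, -0.25 and -0.19, in the order of the comparisons above. None of them passed.

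Taking the mean over the probes of each gene, limma called 15 of the 71 genes lower against AA-CJ, 7 against CC and 0 in CC versus AA-CJ, and 0 higher in any of the 3. Of all 21320 genes so tested, 245 were called lower and 411 higher against AA-CJ, 481 lower and 21 higher against CC, and 17 lower and 548 higher in CC versus AA-CJ.

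The medians of other lists of the translation machinery lay closer to 0 against AA-CJ. Further TOP mRNAs (elongation factors, Tpt1 and others, 37 probes of 20 genes) had medians of -0.09 against AA-CJ, -0.10 against CC and 0.00138 in CC versus AA-CJ, with 0 called in any. Tpt1, with probes of mean A 16.9, 16.2 and 13.5, had -0.19, -0.08 and -0.02 against AA-CJ. Translation factors (44 probes of 26 genes) had medians of 0.04, -0.10 and 0.18. Against AA-CJ, 1 of them was called lower and 1 higher, against 1.17% and 2.12% of all probes. Eif2s2, a subunit of the factor that brings the initiator tRNA, fell by 0.67 at 1 of its 3 probes (adjusted p = 0.0298 by limma), with the other two at 0.30 and 0.05. Eif5a, which helps stalled ribosomes on, rose by 0.53 (adjusted p = 0.0385). Ribosome biogenesis genes (37 probes of 29 genes) had medians of -0.08, -0.09 and -0.00282. Ubtf, a factor of rRNA transcription, fell by 0.62 against AA-CJ at 1 of its 2 probes (adjusted p = 0.0268 by limma), the other at -0.08. Regulators of ribosomal protein synthesis (22 probes of 15 genes) had medians of 0.05, 0.00143 and 0.13. Of these lists, only the TOP mRNAs had probes of mean A 16 or more, 4 of the 37, against 31 of the 106 members. Members under 16 had a median of -0.16 against AA-CJ.

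The proteins of the mitochondrial ribosome, which are encoded in the nucleus too, gave a set of 72 probes of 61 genes. Their median was -0.09 against AA-CJ, -0.01 against CC and -0.12 in CC versus AA-CJ, where 77.8% lay below 0. Against AA-CJ, Mrps26 (-0.47), Mrps36 (-0.45) and Mrpl27 (-0.44) were called lower and Mrps31 (0.50) higher, against 1.17% and 2.12% of all probes. In the other comparisons 0 were called. None of the 72 had a mean A of 16 or more.

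**Figure D4:**
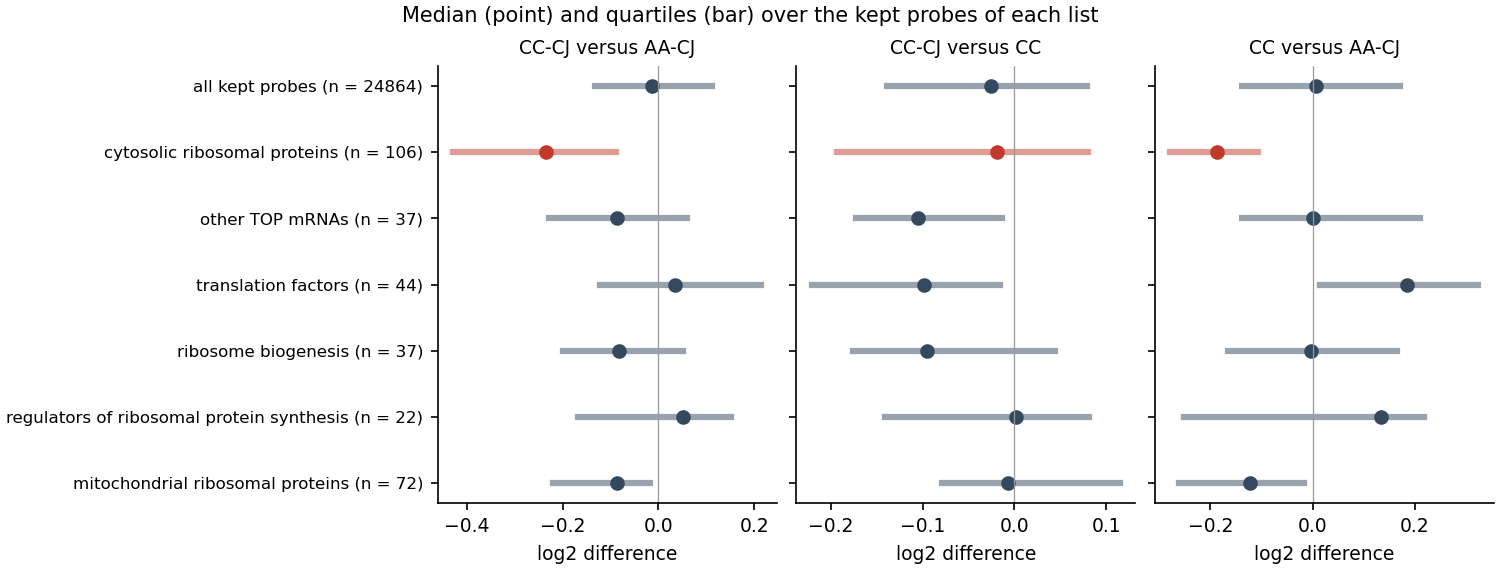
Median (point) and quartiles (bar) of the log2 difference over the kept probes of each gene list in the 3 comparisons, with n the number of probes. The cytosolic ribosomal proteins have medians of -0.24, -0.02 and -0.19, and the mitochondrial ribosomal proteins -0.09, -0.01 and -0.12.

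The TOP start was found among called and other members. A C with 4 further bases of C or T at the start was annotated in 7 of 16 genes called lower against AA-CJ (43.8%) and in 15 of 41 others (36.6%). CTTTC was found in 10 of the 16 (62.5%) and in 13 of the 41 (31.7%), and a run of 8 or more in 9 (56.2%) and 25 (61.0%).

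With 2 arrays per comparison and no swapped dye, the precision is limited.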

How the data were processed

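For each of the 4 arrays (1 slide) the authors deposited scanner output of Feature Extraction 9.5.1.1, with mean signal and local background per spot as intensity on a linear scale and a log10 ratio of Cy5 over Cy3. They also deposited a table of normalized log2 ratios (OLIN and OSLIN per the methods), found to run as Cy5 over Cy3, with unknown centring (column medians -0.02 to 0.01). RNA came from pooled animals, and the methods give a different pool for each replicate. The SE and p-values rest on the spread between arrays of a comparison, pooled over all 4 arrays and drawn towards that of all probes. This spread may still be technical.

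Signals were corrected by normexp (offset 50) and loess on spot brightness (span 0.3) in limma 3.58.1 (R 4.3.3). Control spots and 121 to 179 outlier spots per array were dropped, and spots of a probe averaged. A probe entered if 1 RNA group had it well above background on each of its arrays. All 4 arrays were fitted together (2 residual degrees of freedom, prior 5.02), with Benjamini-Hochberg adjustment over 24864 probes. CC versus AA-CJ is the difference of the direct comparisons. Levels per channel are after Aquantile. The fit was tested on simulated data.

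Of 94 member probes with a RefSeq accession, 91 were listed in RefSeq and 88 had the same symbol. Named are Rps16, called members (the 10 largest where over 15), the 5 highest and lowest per comparison, genes whose probes differ by over 0.5, the paralogue pair and called list genes; others were chosen after their values were seen. Members and lists were chosen with earlier results of these data known. Some items that these rules name are not reported here, and counts and medians include them.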

Additional observations from a re-analysis of the deposited data

How the results depend on the processing

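Rps16 was below 0 in the 3 comparisons (CC-CJ versus AA-CJ, CC-CJ versus CC, CC versus AA-CJ, the order used here) under every alternative run. Agilent's log ratio gave -0.90 and -0.54 in the direct comparisons (adjusted p of 0.106 and 0.215 by limma), the series value table -0.59 (0.0194), -0.30 (0.19) and -0.29 (0.357), and median centring -2.61, -1.75 and -0.87 (0.0241 for the last). Leaving out an array leaves its comparison with 1 array and takes the spread from the other pair and the prior over all probes. It gave -1.16 to -1.12, -0.86 to -0.65 and -0.49 to -0.27. Member medians were -0.198, 0.0122 and -0.212 with Agilent's log ratio, -0.208, 0.00772 and -0.210 with local regression on intensity and location, and -1.38, -0.824 and -0.577 with median centring, which moved the median of all probes in CC versus AA-CJ to -0.133. In the direct comparisons they were -0.195 and 0.00449 with a loess span of 0.1, -0.255 and -0.0300 with loess fitted without the family, -0.161 and 0.0392 in the series value table, and -0.158 and 0.0490 without members of mean A 16 or more. The median was -0.258 against AA-CJ with an offset of 16 and -0.0279 against CC without background correction. Leaving out each array gave medians of -0.250 to -0.232 and -0.0351 to -0.0191. Members called lower against AA-CJ numbered 0 with Agilent's log ratio (0.0442% of all probes), 6 in the series value table (1.41%), 10 with an offset of 16 (0.378%), 37 with an intensity trend and robust prior (1.54%) and 103 with median centring (34.4%), and 4 without the bright members. Against CC these were 0 with Agilent's log ratio (1.21%), 0 in the series value table (2.71%), 4 with an offset of 16 (2.04%), 5 with a span of 0.1 (2.06%) and 100 with median centring (34.0%), and 0 without the bright members. In CC versus AA-CJ they were 2 with the trend (0.0644%) and 30 with median centring (1.07%), which also called 1 and 2 members higher in the direct comparisons. Leaving out each array gave 7 to 28 (0.253% to 2.43%), 0 to 10 (0.921% to 3.55%) and 0 to 1 (0.0965% to 0.406%). The cause of these changes was not tested.

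Array numbers are shared between the pairs of arrays, and only a number links them. With the replicate block 10 and 3 members were called lower in the direct comparisons (0.342% and 1.57% of all probes), and Rps16 had adjusted p of 0.0131, 0.0274 and 0.308 by limma. Deviations of same-numbered arrays correlated at -0.125 over all probes, and with the crossed replicate block 32 members were called lower against AA-CJ (2.9%) and 1 in CC versus AA-CJ (0.282%).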
